A study of Mus musculus with 12 samples.

Results

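AP-1 is described here through 8 genes that code for its subunits: *Fos*, *Fosb*, *Fosl1*, *Fosl2*, *Jun*, *Junb*, *Jund* and *Atf3*. The members were chosen by name and not by a rule on measured values, though with earlier results of these data known. Each symbol matched 1 of the 27998 gene rows of the count matrices. The study sequenced single CD45-negative stromal cells sorted from enzymatically digested hind-limb joints of wild-type C57BL/6 mice with serum transfer-induced arthritis (STIA), a model in which an intravenous injection of 100 µl serum from K/BxN mice brings on a joint inflammation that then subsides. Its 12 libraries carry the labels rest (day 0, treatment none), peak (days 7 to 9), resolving (taken on day 15) and resolved (taken on day 22), with 3 libraries per label. Every library is a pool of cells from 3 animals, no group carries a mutation or a transgene, and the methods of the study give the animals as males of 8 to 10 weeks. In all tests n counts libraries, so the p-values measure the spread between such pools.

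AP-1 is a dimer of basic leucine zipper (bZIP) proteins. Fos proteins bind DNA with a Jun partner and not with one another, whereas Jun proteins also pair with one another and with members of the Atf family such as Atf3. Most members are immediate early genes, which are transcribed within minutes of a mitogen, a cytokine or a stress through MAP kinases and serum response factor, and in joint fibroblasts AP-1 is known for driving matrix metalloproteinase and cytokine genes. The same genes are also known to be induced by the warm enzymatic digestion that releases cells from solid tissue.

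In the GENCODE vM21 annotation of GRCm38, the mouse build that the labels call mm10, *Fos* lies at chr12:85473890-85477273 on the plus strand, *Fosb* at chr7:19302696-19310051 on the minus strand, *Fosl1* at chr19:5447547-5455946 on the plus strand and *Fosl2* at chr5:32135801-32157842 on the plus strand. *Jun* lies at chr4:95049034-95052222 on the minus strand, *Junb* at chr8:84974484-84978718 on the minus strand, *Jund* at chr8:70698949-70700616 on the plus strand and *Atf3* at chr1:191170296-191218039 on the minus strand. Other annotated genes overlap *Fosl1* (*Ccdc85b*), *Junb* (*Prdx2*), *Jun* (*Junos*), *Jund* (*Gm11175*) and *Atf3* (*Gm24748*), and whether the counting was set to use the strand is not given in the sources used here.

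The bases upstream of 4 members that rank among the fastest responders are shown, because immediate early genes are controlled largely through such regions. They are taken from the RefSeq promoter table of GRCm38.p6, in which 7 of the 8 members matched (all but *Fosl1*). Bases that GENCODE vM21 gives as exonic are left out of the sequences printed. Capitals mark TGACG, the core of the element bound by Creb and Atf dimers, and TGACATCA, a site bound by Jun and Atf dimers. They also mark TATAAA, where the general transcription machinery binds. Each was searched on either strand. The windows lie at chr12:85473640-85473889 (plus strand, *Fos*), chr7:19310052-19310295 (minus, *Fosb*), chr4:95052223-95052472 (minus, *Jun*) and chr8:84978749-84978998 (minus, *Junb*).
Fos: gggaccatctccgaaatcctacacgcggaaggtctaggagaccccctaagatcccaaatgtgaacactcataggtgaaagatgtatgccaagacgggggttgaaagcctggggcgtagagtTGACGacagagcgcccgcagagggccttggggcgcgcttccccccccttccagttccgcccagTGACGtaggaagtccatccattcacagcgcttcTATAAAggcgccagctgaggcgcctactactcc
Fosb: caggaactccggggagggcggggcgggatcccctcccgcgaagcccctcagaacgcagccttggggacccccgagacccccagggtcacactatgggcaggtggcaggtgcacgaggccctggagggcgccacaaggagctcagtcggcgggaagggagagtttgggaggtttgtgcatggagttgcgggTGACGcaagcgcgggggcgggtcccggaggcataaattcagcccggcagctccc
Jun: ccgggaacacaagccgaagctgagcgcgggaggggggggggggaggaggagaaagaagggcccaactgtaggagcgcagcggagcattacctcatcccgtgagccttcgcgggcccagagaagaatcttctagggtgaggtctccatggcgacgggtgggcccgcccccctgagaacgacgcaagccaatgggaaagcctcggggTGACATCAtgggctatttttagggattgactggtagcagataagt
Junb: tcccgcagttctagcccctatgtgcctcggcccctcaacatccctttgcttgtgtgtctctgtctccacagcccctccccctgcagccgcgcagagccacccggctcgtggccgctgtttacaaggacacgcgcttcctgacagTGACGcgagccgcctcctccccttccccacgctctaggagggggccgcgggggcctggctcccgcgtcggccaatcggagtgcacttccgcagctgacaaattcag
*Fos* held TGACG 66 and 129 bases before its start and TATAAA 33 bases before it, *Fosb* held TGACG 60 bases before its start, *Junb* held it 106 bases before its start, and *Jun* held TGACATCA 45 bases before its start. The search covered all 250 bases of each window, exonic bases included, which were 250 for *Fosl2*, 7 for *Atf3* and 6 for *Fosb*, and the 1 TGACG of *Atf3*, 7 bases before its start, lay in its exonic bases. Of the 32851 promoters of the table, searched with the same window on both strands, 17.8% held TGACG, 2.93% TGACATCA and 12.4% TATAAA. The canonical AP-1 site TGACTCA (4.46% of promoters), the full element TGACGTCA, within which TGACG lies (1.55%), and the CArG box bound by serum response factor (1.47%) were found in none of the 7 windows, which says only that these letters are not in these windows.

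The deposited matrices held 21042 cells, of which 20060 passed the limits on genes and UMIs per cell, 1227 to 2747 per library, and no barcode occurred in more than 1 library. The median deposited cell had 5358 UMIs in each of the 12 libraries, an equality that scaling of the libraries to a common depth would give, and whether this was done is not given in the sources used here. Cells were clustered without the 8 members and without the other immediate early and heat shock genes, and 11 classes were named from markers. They comprised 9905 fibroblast-like, 3383 tenocyte-like, 1768 vascular endothelial-like, 1360 osteoblast-like, 741 proliferating-like, 655 perivascular-like, 313 chondrocyte-like, 266 muscle-like, 186 lymphatic endothelial-like, 112 immune-like and 108 Schwann-like cells, while 1263 cells stayed unnamed. The fibroblast-like cells carried their markers (*Dcn* in 99.8% and *Pdgfra* in 55.7% of cells), and the immune-like cells held *Ptprc*, which codes for CD45, in 46.4% of cells despite the sort. Of the tenocyte-like markers, *Comp* was found in 97.3%, *Tnmd* in 68.7%, *Mkx* in 24.6% and *Scx* in 15.5% of cells.

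The libraries stood together by the number at the end of their barcodes and not by their stage label. Suffixes 1, 5 and 9 belong to the rest libraries, 2, 6 and 10 to peak, 3, 7 and 11 to resolving, and 4, 8 and 12 to resolved, so that suffixes 1 to 3, 4 to 6, 7 to 9 and 10 to 12 each span 3 different labels. In summed fibroblast-like counts, the nearest library came from the same suffix group for 12 of 12 libraries and from the same label for 0 of 12. What the suffix groups stand for is not given in the sources used here. Levels are therefore given below both by label and by suffix group.

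Levels are sums of UMIs over all cells of a class in a library, relative to all UMIs of that sum, on the usual CPM scale. The libraries count only the 3′ end of each transcript and no length enters the values, so levels are compared between cells for 1 gene and never between genes. The joints were digested with collagenase and DNase at body temperature before sorting, and no undigested sample is part of the comparison. RNA made in the joint and RNA made during digestion cannot be told apart.

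Each class was compared with fibroblast-like cells for the 8 members. Of the 64 pairs of member and class 28 passed the test, 13 higher and 15 lower, beside 37.9% of all pairs of gene and class (16.6% higher and 21.3% lower), so the number of member calls was near the background. Calls required an adjusted p under 0.05 and a change of over 0.5 on the log2 scale. Fold changes and counts of libraries that were higher, here and below, use sums after TMM scaling (described with the processing). The printed levels in CPM do not, so the direction in a library can differ between them. Of the 28 calls, 18 held in each of the 10 other settings tried. All 8 contrasts come from 1 fit over 92 sums and 9093 genes and share the fibroblast-like sums. A class counted in a library with at least 10 cells, which gave 12 libraries for fibroblast-like, tenocyte-like, osteoblast-like, perivascular-like and vascular endothelial-like cells, 10 for lymphatic endothelial-like, 8 each for chondrocyte-like and muscle-like, and 6 for proliferating-like cells. Proliferating-like cells numbered 11, 520, 206 and 4 in suffixes 1 to 3, 4 to 6, 7 to 9 and 10 to 12. Muscle-like cells numbered 113, 5, 30 and 118 there, and chondrocyte-like cells 191, 44, 66 and 12. The class means below and their order therefore rest on unlike mixes of suffix groups, whereas the fold changes compare classes within a library.

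*Fos* codes for the founding Fos protein, a strong transactivator that is short-lived. Its level was, as mean ± SD over libraries, 6948 ± 2156 CPM in tenocyte-like, 5931 ± 1366 in osteoblast-like, 5361 ± 2272 in lymphatic endothelial-like, 4128 ± 1231 in vascular endothelial-like and 3680.3 ± 998 in fibroblast-like cells. *Fos* was lower, at 3511 ± 1075 in muscle-like, 3102 ± 918 in perivascular-like, 2298 ± 871 in chondrocyte-like and 1798 ± 637 in proliferating-like cells. For *Fos*, each neighbouring pair in that order differed by less than the larger of its SDs. By library, *Fos* ran from 3030.5 through a median of 7424 to 9438 CPM in tenocyte-like cells and from 2522 through a median of 3478 to 5891 CPM in fibroblast-like cells. The groups overlapped, yet within a library tenocyte-like cells always held more (log2 fold change 0.96 ± 0.17 SE, adjusted p = 2.08e-06, higher in 12 of 12 libraries). By suffix group, tenocyte-like *Fos* averaged 6960 CPM in 1 to 3, 8722 in 4 to 6, 4066 in 7 to 9 and 8042 in 10 to 12. Suffixes 7 to 9 held 909 of the 972 cells of tenocyte-like cluster 9 (*C1qtnf3*, *Spon2*). Osteoblast-like cells also held more *Fos* than fibroblast-like cells (log2 fold change 0.64 ± 0.17 SE, adjusted p = 0.00101, higher in 12 of 12 libraries). Proliferating-like cells held less (log2 fold change -0.95 ± 0.22 SE, adjusted p = 0.000268, higher in 0 of 6 libraries). Schwann-like cells, which met the minimum of 10 cells in only 3 libraries and were not tested, ranged from 3335 to 8355 CPM.

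*Fosb* is a close paralogue of *Fos*. Its level reached 945 ± 409 CPM in muscle-like, 629.8 ± 301 in tenocyte-like, 552 ± 241 in osteoblast-like, 505 ± 196 in perivascular-like and 455 ± 134 in fibroblast-like cells. *Fosb* was lower, at 441 ± 152 in vascular endothelial-like, 440.0 ± 317 in lymphatic endothelial-like, 431 ± 71.4 in chondrocyte-like and 216 ± 108 in proliferating-like cells. For *Fosb*, the step from chondrocyte-like to proliferating-like cells exceeded the larger of the SDs, and the other neighbours did not differ by more than theirs. Muscle-like cells were higher than fibroblast-like cells (log2 fold change 0.78 ± 0.21 SE, adjusted p = 0.00129, higher in 8 of 8 libraries). Lymphatic endothelial-like cells were lower (log2 fold change -0.67 ± 0.21 SE, adjusted p = 0.00513, higher in 1 of 10 libraries; held in 6 of the 10 other settings), as were proliferating-like cells (log2 fold change -1.06 ± 0.23 SE, adjusted p = 7.86e-05, higher in 0 of 6 libraries).

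*Fosl1* codes for Fra-1, a Fos protein without the strong transactivation domain of Fos, and it had the widest range of fitted differences across classes among the 8 members. Mean levels were 342 ± 175 CPM in muscle-like, 85.8 ± 24.6 in chondrocyte-like, 64.4 ± 30.6 in proliferating-like, 56.0 ± 20.8 in fibroblast-like and 41.5 ± 24.9 in perivascular-like cells. *Fosl1* was lower, at 27.2 ± 18.4 in tenocyte-like, 19.1 ± 7.31 in vascular endothelial-like, 11.8 ± 8.55 in osteoblast-like and 6.74 ± 10.1 in lymphatic endothelial-like cells. For *Fosl1*, the step from muscle-like to chondrocyte-like cells exceeded the larger of the SDs, and the other neighbours did not differ by more than theirs. Across the 8 muscle-like sums the values ran from 181 through a median of 306 to 687 CPM, all above the highest fibroblast-like library, with that class running from 15.3 through a median of 56.7 to 87.0 CPM. Muscle-like cells passed the test (log2 fold change 2.55 ± 0.26 SE, adjusted p = 7.84e-14, higher in 8 of 8 libraries). So did chondrocyte-like cells (log2 fold change 1.12 ± 0.24 SE, adjusted p = 4.17e-05, higher in 6 of 8 libraries). Vascular endothelial-like (log2 fold change -1.78 ± 0.24 SE, adjusted p = 3.82e-10, higher in 0 of 12 libraries) and osteoblast-like cells (log2 fold change -2.37 ± 0.27 SE, adjusted p = 1.93e-12, higher in 0 of 12 libraries) were lower than fibroblast-like cells. Tenocyte-like (log2 fold change -0.97 ± 0.19 SE, adjusted p = 1.83e-05, higher in 1 of 12 libraries) and perivascular-like cells (log2 fold change -0.64 ± 0.26 SE, adjusted p = 0.0361, higher in 2 of 12 libraries) were lower too, the call in perivascular-like cells holding in only 4 of the 10 other settings. Lymphatic endothelial-like cells held 5 *Fosl1* UMIs in all over 10 libraries and a median library of 0. The fitted value of -3.60 (adjusted p = 5.27e-06) is no bound at that count.

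Counted by cell, 40.6% of muscle-like cells (Wilson 95% interval 34.9 to 46.6%) carried a *Fosl1* UMI at a median of 2570.0 UMIs per cell, against 20.3% of fibroblast-like cells (19.5 to 21.1%) at a median of 5636. The lowest share was 2.69% of lymphatic endothelial-like cells at a median of 3482 UMIs. After each cell was thinned to 2000 UMIs, which left 233 muscle-like, 9711 fibroblast-like and 173 lymphatic endothelial-like cells, the shares of cells with *Fosl1* were 35.6%, 8.80% and 1.16%. Before thinning, 51.4% of chondrocyte-like and 42.5% of proliferating-like cells, the deepest classes, carried a *Fosl1* UMI, both with intervals that overlap that of muscle-like cells. After thinning these shares were 15.7% and 13.3%, and that of muscle-like cells was the highest of the 11 named classes. These intervals cover counting error only.

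*Fosl2* codes for Fra-2, a further Fos protein with a weak transactivation domain. Its level was 298 ± 131 CPM in perivascular-like, 180.0 ± 43.0 in vascular endothelial-like, 149 ± 49.2 in muscle-like, 125 ± 68.2 in lymphatic endothelial-like and 108 ± 17.8 in fibroblast-like cells. Lower means were 106 ± 36.0 in tenocyte-like, 88.1 ± 27.0 in osteoblast-like, 87.2 ± 25.7 in chondrocyte-like and 78.5 ± 14.9 in proliferating-like cells. For *Fosl2*, each neighbouring pair in that order differed by less than the larger of its SDs. Perivascular-like cells ran from 108 through a median of 279.8 to 500.1 CPM, and fibroblast-like cells from 81.4 through a median of 107 to 134 CPM. The higher level in perivascular-like cells passed the test (log2 fold change 1.19 ± 0.15 SE, adjusted p = 1.19e-10, higher in 12 of 12 libraries). So did that in vascular endothelial-like cells (log2 fold change 0.52 ± 0.14 SE, adjusted p = 0.00101, higher in 11 of 12 libraries), though this call held in only 4 of the 10 other settings tried. By vascular cluster (described below), *Fosl2* averaged 275 ± 98.5 CPM in cluster 16 (636 cells) and 111 ± 26.9 in cluster 6 (1132 cells), without a test.

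*Jun*, the partner that lets Fos proteins bind DNA, stood at 3219.8 ± 1217 CPM in vascular endothelial-like, 3171 ± 1163 in lymphatic endothelial-like, 3075 ± 859 in osteoblast-like, 2759 ± 817 in tenocyte-like and 2297 ± 739.6 in muscle-like cells. The others held 1850.4 ± 469 in perivascular-like, 1775 ± 439.8 in fibroblast-like, 1363 ± 464 in chondrocyte-like and 792 ± 178 in proliferating-like cells. For *Jun*, the step from chondrocyte-like to proliferating-like cells exceeded the larger of the SDs, and the other neighbours did not differ by more than theirs. It was higher than in fibroblast-like cells in osteoblast-like (log2 fold change 0.72 ± 0.16 SE, adjusted p = 0.000104, higher in 12 of 12 libraries) and tenocyte-like cells (log2 fold change 0.68 ± 0.16 SE, adjusted p = 0.000366, higher in 12 of 12 libraries). Vascular endothelial-like cells were higher as well (log2 fold change 0.61 ± 0.16 SE, adjusted p = 0.000535, higher in 12 of 12 libraries). Proliferating-like cells were lower (log2 fold change -1.05 ± 0.21 SE, adjusted p = 3.04e-05, higher in 0 of 6 libraries).

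*Junb*, a Jun protein known to restrain *Jun* activity at several promoters, had levels of 5599.7 ± 1135 CPM in muscle-like, 3689.6 ± 1159 in vascular endothelial-like, 2993 ± 1104 in perivascular-like, 2654 ± 1471 in lymphatic endothelial-like and 2646 ± 974 in tenocyte-like cells. *Junb* was lower, at 2560.1 ± 598 in osteoblast-like, 1957 ± 372 in chondrocyte-like, 1952 ± 730.0 in fibroblast-like and 730.4 ± 141 in proliferating-like cells. For *Junb*, the step from muscle-like to vascular endothelial-like cells, that from osteoblast-like to chondrocyte-like cells and that from fibroblast-like to proliferating-like cells exceeded the larger of the SDs, and the other neighbours did not differ by more than theirs. Muscle-like cells ran from 3738 through a median of 5428 to 7539 CPM, against from 1219 through a median of 1660.1 to 3251 CPM in fibroblast-like cells. The test called them higher (log2 fold change 1.18 ± 0.18 SE, adjusted p = 6.21e-08, higher in 8 of 8 libraries). *Junb* was also higher in vascular endothelial-like cells (log2 fold change 0.71 ± 0.16 SE, adjusted p = 5.69e-05, higher in 12 of 12 libraries). The call in tenocyte-like cells (log2 fold change 0.51 ± 0.16 SE, adjusted p = 0.00879, higher in 9 of 12 libraries) held in 2 of the 10 other settings. Tenocyte-like *Junb* averaged 1101 CPM in suffixes 7 to 9, below the 1334 of fibroblast-like cells there, against 3033 to 3325 in the other suffix groups. Proliferating-like cells were lower (log2 fold change -1.19 ± 0.21 SE, adjusted p = 3.05e-06, higher in 0 of 6 libraries).

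*Jund*, the Jun gene that is usually expressed steadily rather than on stimulation, stood at 152 ± 47.3 CPM in vascular endothelial-like, 152 ± 28.6 in fibroblast-like, 139 ± 94.5 in lymphatic endothelial-like, 137 ± 48.8 in muscle-like and 124 ± 40.4 in perivascular-like cells. Lower means were 115 ± 28.7 in chondrocyte-like, 107 ± 12.7 in tenocyte-like, 97.2 ± 14.2 in proliferating-like and 94.1 ± 22.2 in osteoblast-like cells. For *Jund*, each neighbouring pair in that order differed by less than the larger of its SDs. No class passed the test upwards, and 4 were lower than fibroblast-like cells. These were osteoblast-like (log2 fold change -0.81 ± 0.13 SE, adjusted p = 6.22e-08, higher in 0 of 12 libraries) and lymphatic endothelial-like cells (log2 fold change -0.67 ± 0.18 SE, adjusted p = 0.00165, higher in 2 of 10 libraries). The others were perivascular-like (log2 fold change -0.56 ± 0.14 SE, adjusted p = 0.000392, higher in 2 of 12 libraries) and proliferating-like cells (log2 fold change -0.63 ± 0.16 SE, adjusted p = 0.00074, higher in 0 of 6 libraries).

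*Atf3*, a stress-induced bZIP protein that pairs with Jun proteins, was measured at 1326 ± 767 CPM in lymphatic endothelial-like, 1052 ± 394 in perivascular-like, 1018 ± 239 in vascular endothelial-like, 931 ± 443 in tenocyte-like and 847 ± 248 in fibroblast-like cells. The others held 810.5 ± 207 in muscle-like, 702 ± 268 in chondrocyte-like, 629.5 ± 165 in osteoblast-like and 303 ± 87.8 in proliferating-like cells. For *Atf3*, the step from osteoblast-like to proliferating-like cells exceeded the larger of the SDs, and the other neighbours did not differ by more than theirs. Only the lower level in proliferating-like cells passed the test (log2 fold change -1.34 ± 0.25 SE, adjusted p = 6.13e-06, higher in 0 of 6 libraries).

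**Figure D1:**
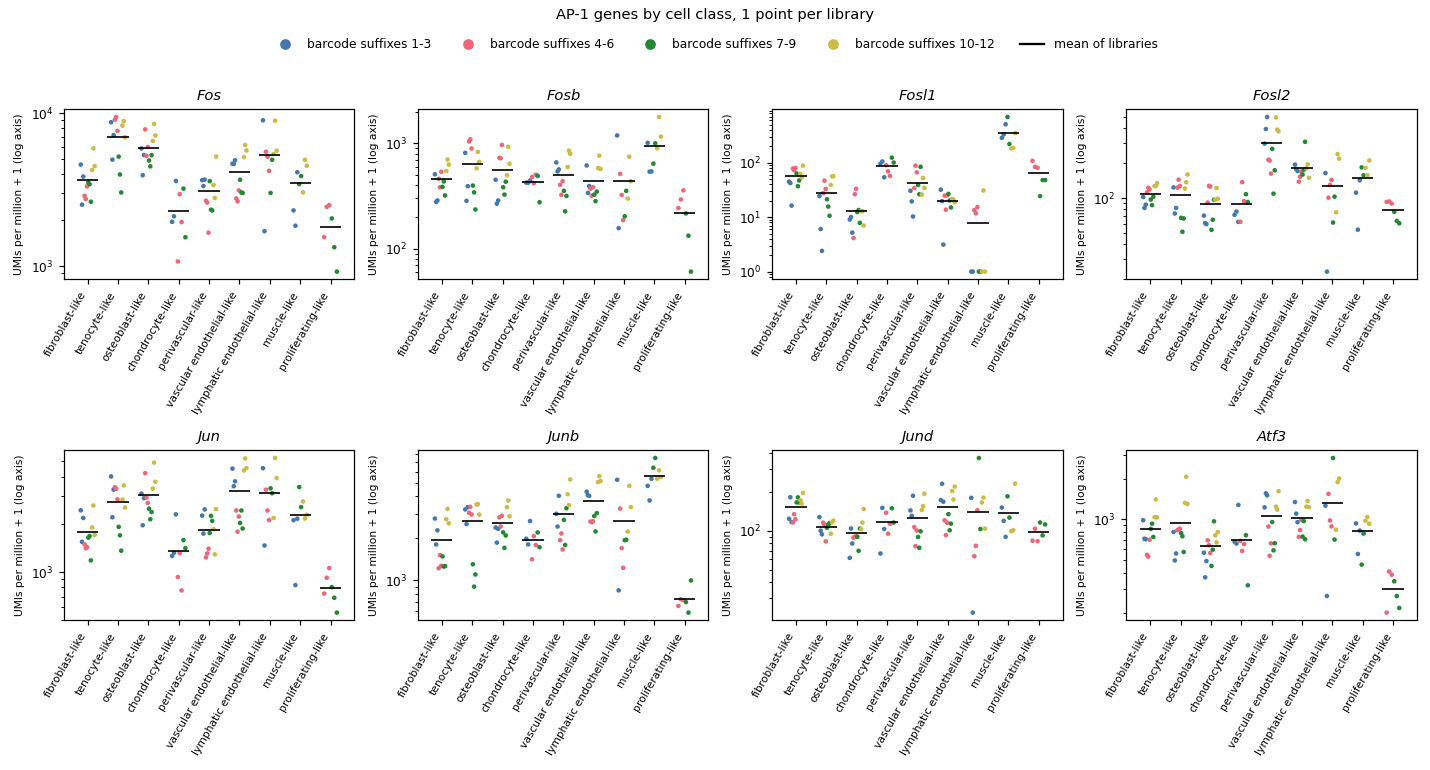
Levels of the 8 AP-1 genes in CPM (plus 1, log axis) for 9 marker-named classes, with 1 point per library coloured by barcode suffix group and a bar at the mean. All 8 muscle-like points for *Fosl1* sit above the 12 fibroblast-like points, and the 6 proliferating-like points are low for *Fos*, *Fosb*, *Jun*, *Junb* and *Atf3*.

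The background shares differ between classes and bear on how the member counts read. In vascular endothelial-like cells 3 members were called higher and 1 lower, with 28.7% of the genes tested being higher and 25.4% lower in that comparison. Lymphatic endothelial-like cells had 0 members higher and 3 lower, against 15% of the genes tested being higher and 25% lower in that comparison. For perivascular-like cells the members were 1 higher and 2 lower beside 18.3% of the genes tested being higher and 23.4% lower in that comparison. Osteoblast-like cells had 2 higher and 2 lower, with 14.9% of the genes tested being higher and 16.6% lower in that comparison. Tenocyte-like cells had 3 higher and 1 lower, with 10.3% of the genes tested being higher and 9.51% lower in that comparison. Chondrocyte-like cells had 1 higher and 0 lower, with 21.2% of the genes tested being higher and 28.2% lower in that comparison. Muscle-like cells had 3 higher and 0 lower against 12.6% of the genes tested being higher and 26.5% lower in that comparison. The median fold change of all genes there was -0.38 on the log2 scale. Proliferating-like cells had 0 higher and 6 lower, against 11.5% of the genes tested being higher and 15.8% lower in that comparison.

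Other immediate early genes and heat shock genes, known to respond to handling of cells, differed in several of the same classes. In proliferating-like cells the other immediate early genes tested were 0 higher and 18 lower of 29 (*Socs3*, *Klf4* and *Myc* lowest) and the heat shock genes 0 higher and 8 lower of 13. In tenocyte-like cells these lists were 12 higher and 1 lower of 29 and 1 higher and 0 lower of 13. In vascular endothelial-like cells they were 16 higher and 2 lower of 29 and 4 higher and 2 lower of 13. Muscle-like cells had 11 higher and 0 lower of 13 heat shock genes, with *Hsph1*, *Dnajb1* and *Hspa1a* highest. Other immediate early genes were 7 higher and 4 lower of 29 there. Median depth also differed, with 12000 UMIs per cell in proliferating-like, 12509 in chondrocyte-like, 5636 in fibroblast-like and 2570.0 in muscle-like cells. The part of handling and of depth in the members' differences between classes was not tested.

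The other genes of the pathway were read from lists of bZIP partners, of kinases and factors upstream of AP-1, and of known AP-1 target genes. Among the bZIP partners, vascular endothelial-like cells had 7 higher and 6 lower of 17 tested, with *Batf*, *Batf3* and *Crem* highest and *Maf* lowest. Upstream genes were 8 higher and 1 lower of 19 tested there, led by *Mef2c* and *Elk3*, while proliferating-like cells had 1 higher and 3 lower of 19. The AP-1 target genes were 2 higher and 11 lower of 18 in vascular endothelial-like cells and 3 higher and 13 lower of 18 in lymphatic endothelial-like cells. They were 2 higher and 8 lower of 18 in tenocyte-like and 8 higher and 6 lower of 18 in chondrocyte-like cells, where *Il11* and *Spp1* were among those higher. Their medians on the log2 scale were -2.14, -1.86, -0.42 and 0.67, beside 0.056, -0.20, 0.00099 and -0.11 over all genes tested.

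Fibroblast-like cells fell into 8 clusters, 6 of which occurred in every library. The members' levels in them are given without a test, because the clusters were cut from the same cells. *Fos* averaged 7993 ± 3077 CPM (SD, n = 12 libraries) in cluster 5 (*Inmt*, *Serpina3c*, *Dkk2*, *Penk*) and 6326 ± 2259 in cluster 14 (*Ccl11*, *Hmcn2*), against 2791 ± 604 in cluster 7 (*Rab37*; the lining cluster by its markers) and 2845 ± 1090.0 in cluster 2 (*Ifi205*, *C4b*, *Ccl7*, *Ptx3*). *Jun* was likewise high in these clusters and low in the lining cluster, with 3544 ± 1188 in cluster 5 and 3737 ± 1311 in cluster 14 against 879 ± 186 in the lining cluster. Cluster 14 also held the highest mean *Junb*, 4505 ± 1638 CPM.

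*Fosl1* and *Fosl2* had another distribution over the fibroblast clusters. *Fosl1* averaged 115 ± 45.4 CPM in cluster 2 and 5.85 ± 3.18 in cluster 5, the cluster in which *Fos* was highest. *Fosl2* averaged 217 ± 32.4 in cluster 2 and 79.6 ± 29.3 to 146 ± 58.8 in the other 5 clusters that every library held. Cluster 2 further had the highest mean of *Fosb* (785 ± 166 CPM), of *Jund* (204 ± 56.2) and of *Atf3* (1171 ± 372). Cluster 4 (*Cxcl5*, *Saa3*), with 1173 of its 1328 cells in suffixes 4 to 6 and a median of 10678.5 UMIs per cell, averaged 2497 ± 909 CPM of *Fos* and 995 ± 194 of *Junb* over 6 libraries. Cluster 0 (*Col5a3*, *Lrrc15*), with 1580 of 1946 cells in suffixes 7 to 9, averaged 3768 ± 1587 and 1476 ± 839.7 over 9 libraries.

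**Figure D2:**
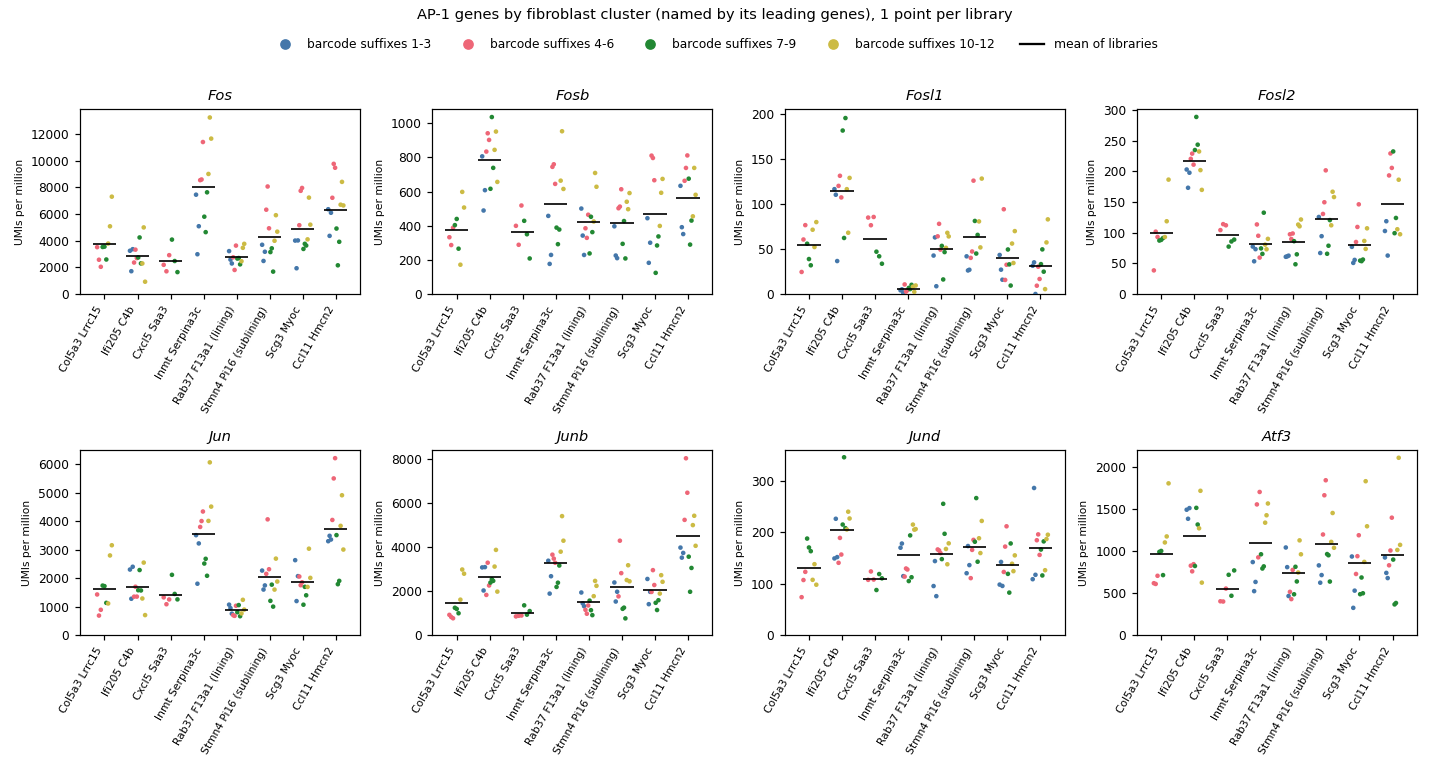
Levels of the 8 AP-1 genes in CPM in the 8 fibroblast-like clusters, each named by its leading genes, with 1 point per library coloured by suffix group and a bar at the mean. *Fos* and *Jun* are high where *Fosl1* is near 0 (the *Inmt* cluster), and *Fosl1* and *Fosl2* are highest in the *Ifi205* cluster.

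Lining and sublining fibroblasts, the layers next to the joint space and beneath it, were compared within libraries as cluster 7 against cluster 8 (*Pi16*, *Dpp4*), the only clusters that met the markers of these layers. In the lining cluster *Jun* ran lowest 659.9, median 847 and highest 1236 CPM, and in the sublining cluster lowest 997, median 1824 and highest 4064. The ranges overlapped, but *Jun* was lower in the lining cluster of every library (log2 fold change -1.19 ± 0.12 SE, adjusted p = 2.42e-08, higher in 0 of 12 libraries). *Atf3* was lower as well (log2 fold change -0.59 ± 0.16 SE, adjusted p = 0.00326, higher in 2 of 12 libraries). So were *Fos* (log2 fold change -0.58 ± 0.14 SE, adjusted p = 0.00192, higher in 1 of 12 libraries) and *Fosl2* (log2 fold change -0.52 ± 0.10 SE, adjusted p = 0.000199, higher in 1 of 12 libraries). These 4 of the 8 members were lower and 0 higher, beside 16% of 5705 genes lower and 13.7% higher. The other 4 had log2 fold changes of -0.49 (*Junb*), -0.39 (*Fosl1*), -0.26 (*Jund*) and -0.016 (*Fosb*) and were not called. The count fell to 1 member without the filter on low counts and to 1 without the upper limits on genes and UMIs per cell. Of the 9 other settings, the call of *Jun* held in 9, those of *Fos* and *Atf3* in 7 and that of *Fosl2* in 4. *Fosl2* averaged 84.5 CPM in the lining cluster, 123 in cluster 8, 82.3 in cluster 5, 79.6 in cluster 10, 146 in cluster 14 and 217 in cluster 2. The calls are against cluster 8 and not against all fibroblasts outside the lining.

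Around these members, 0 higher and 7 lower of 13 tested heat shock genes and 2 higher and 8 lower of 26 tested other immediate early genes were called in the lining cluster, with *Dusp6* and *Egr2* higher and *Rhob*, *Klf6* and *Klf4* lowest, and the part of handling was not tested. The bZIP partners were 2 higher and 4 lower of 15 (*Crem*, *Nfe2l1* higher), and the upstream genes 3 higher and 1 lower of 14 (*Elk3*, *Elk4*, *Map2k3* higher). Known AP-1 target genes were 6 higher and 5 lower of 14: *Hbegf*, a growth factor gene, had a log2 fold change of 6.18, *Timp1* of 2.62 and *Spp1* of 2.02, while *Ptgs2*, which codes for COX-2, stood at -3.04, *Ccl2* at -2.92 and *Ccnd1* at -1.03.

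By stage label, no AP-1 gene passed the test in fibroblast-like cells. *Fos* averaged 3330.3 ± 1111 CPM (SD, n = 3) in rest, 3364 ± 864 in peak, 4421 ± 1284 in resolving and 3606 ± 826 in resolved libraries, and *Fosl1* 53.7 ± 15.4, 60.4 ± 18.9, 43.3 ± 24.8 and 66.6 ± 27.0. The members' log2 fold changes against rest lay between -0.32 and 0.41 over the 3 labels. Of all genes, 0% of 11496 were called higher and 0% lower for peak, 0% and 0% for resolving, and 0% and 0% for resolved. In edgeR's quasi-likelihood test 83, 108 and 69 genes had an unadjusted p under 0.05 in these contrasts, and the count of members stayed at 0 with DESeq2 and in each of the other settings tried. These 3 contrasts share the rest libraries. In simulated data the test of peak against rest found 19% of genes given a log2 change of 1 and 74% of those given 2. The absence of calls therefore does not show equal levels between labels. Within 1 label the libraries were far apart: the rest libraries held 2772, 1515 and 1265 CPM of *Junb* (suffixes 1, 5 and 9).

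By suffix group, all 8 members differed in some group in fibroblast-like cells, beside 54.6% of 11496 genes. *Junb* per library was 2772, 1806 and 2280.4 CPM in suffixes 1 to 3, 1219, 1515 and 1269.5 in 4 to 6, 1483, 1255 and 1265 in 7 to 9 and 2745, 3251 and 2561 in 10 to 12. Suffixes 4 to 9 lay below the other 6 libraries without overlap, a split read from the values, and how many of all genes separate likewise was not counted. The difference of *Junb* in suffixes 4 to 6 from 1 to 3 passed the test (log2 fold change -0.70 ± 0.15 SE, adjusted p = 0.00127). *Fosl1* was 43.7, 41.3 and 15.3 CPM in suffixes 1 to 3, 76.7, 71.4 and 79.1 in 4 to 6, 62.2, 35.9 and 46.1 in 7 to 9 and 61.0, 52.5 and 87.0 in 10 to 12. All 3 libraries of suffixes 4 to 6 lay above those of 1 to 3, and *Fosl1* passed in that contrast (log2 fold change 1.23 ± 0.30 SE, adjusted p = 0.00374). These were 1 member higher and 1 lower, beside 17.3% of genes higher and 18% lower.

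*Fosb* was 508, 276 and 286 CPM in suffixes 1 to 3, 460.0, 382 and 536 in 4 to 6, 384, 434 and 319 in 7 to 9 and 545, 701 and 628 in 10 to 12. *Fosl2* was 101, 81.4 and 86.9 CPM in suffixes 1 to 3, 111, 122 and 118 in 4 to 6, 96.2, 86.1 and 102 in 7 to 9 and 126, 127 and 134 in 10 to 12. Both were highest in suffixes 10 to 12, where each library lay above every library of the other groups, and were called there against 1 to 3: *Fosb* at 0.88 ± 0.19 SE on the log2 scale (adjusted p = 0.0403) and *Fosl2* at 0.59 ± 0.10 SE (adjusted p = 0.0128). Few genes passed in that contrast, 0.731% higher and 0.391% lower. How many of all genes lay highest in every library of suffixes 10 to 12 was not counted. Leaving out resolving replicate 1 or resolved replicate 3 ended both calls. Suffixes 7 to 9 against 4 to 6 called 0 of 8 members in edgeR, with 8.72% of genes higher and 7.39% lower. In edgeR 4 of the 8 had an unadjusted p under 0.05, beside 4144 of 11496 genes, and DESeq2 called 0 members.

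The mix of fibroblast clusters moved with the suffix groups, and the direction of *Junb* changed with the clusters included. Over only the 6 clusters that every library held (6631 cells, a choice made once the data had been seen), *Junb* in suffixes 4 to 6 against 1 to 3 changed sign and was not called (0.33, adjusted p = 0.215), and *Fosl1* was no longer called (0.98, adjusted p = 0.09). *Fosb* (0.94, adjusted p = 0.00309) and *Fosl2* (0.77, adjusted p = 0.00216) were called higher, beside 5.13% of 10382 genes. With every fibroblast-like cell thinned to 2000 UMIs, the log2 fold change of *Junb* was -0.27 and was not called either.

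Within the 6 shared clusters, suffixes 7 to 9 lay below 4 to 6 for 5 members, beside 2.21% of genes lower: *Fos* (-0.69, adjusted p = 0.0292), *Fosb* (-0.74, adjusted p = 0.0285), *Fosl2* (-0.55, adjusted p = 0.0414), *Jun* (-0.72, adjusted p = 0.0255) and *Junb* (-0.73, adjusted p = 0.0206). In single clusters, *Fos*, *Fosb* and *Atf3* were higher in suffixes 4 to 6 than in 1 to 3 in cluster 5 (3.11% of genes higher) and in cluster 8 (1.29%), with log2 fold changes of 0.90, 1.37 and 1.07 in cluster 5 and 1.04, 0.96 and 1.11 in cluster 8. *Fosl2* was higher in the lining cluster (0.58, adjusted p = 0.0487; 7.46% of genes), and *Fosl2* (1.32, adjusted p = 0.0303) and *Junb* (0.98, adjusted p = 0.0242) in cluster 14 (1.26% of genes). Clusters 2 and 10 called no member in that contrast.

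Lower levels in suffixes 7 to 9 than in 4 to 6 were also called in cluster 8 alone, for 4 members on the log2 scale (*Fos* -1.15, *Jun* -1.04, *Junb* -1.40 and *Atf3* -0.79; 0.485% of genes lower), and in cluster 14 alone, for 3 (*Fos* -1.39, *Jun* -1.26 and *Junb* -1.33; 1.14%). Suffixes 10 to 12 were higher than 1 to 3 in cluster 5 alone for 5 members (*Fos* 1.22, *Fosb* 1.47, *Jun* 0.86, *Junb* 0.86 and *Atf3* 1.19; 0.934% of genes higher) and in cluster 8 alone for 3 (*Fosb* 1.07, *Fosl1* 1.55 and *Atf3* 0.83; 1.19%). These single-cluster settings were chosen after seeing the data, and their values were not compared with one another by a test.

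**Figure D3:**
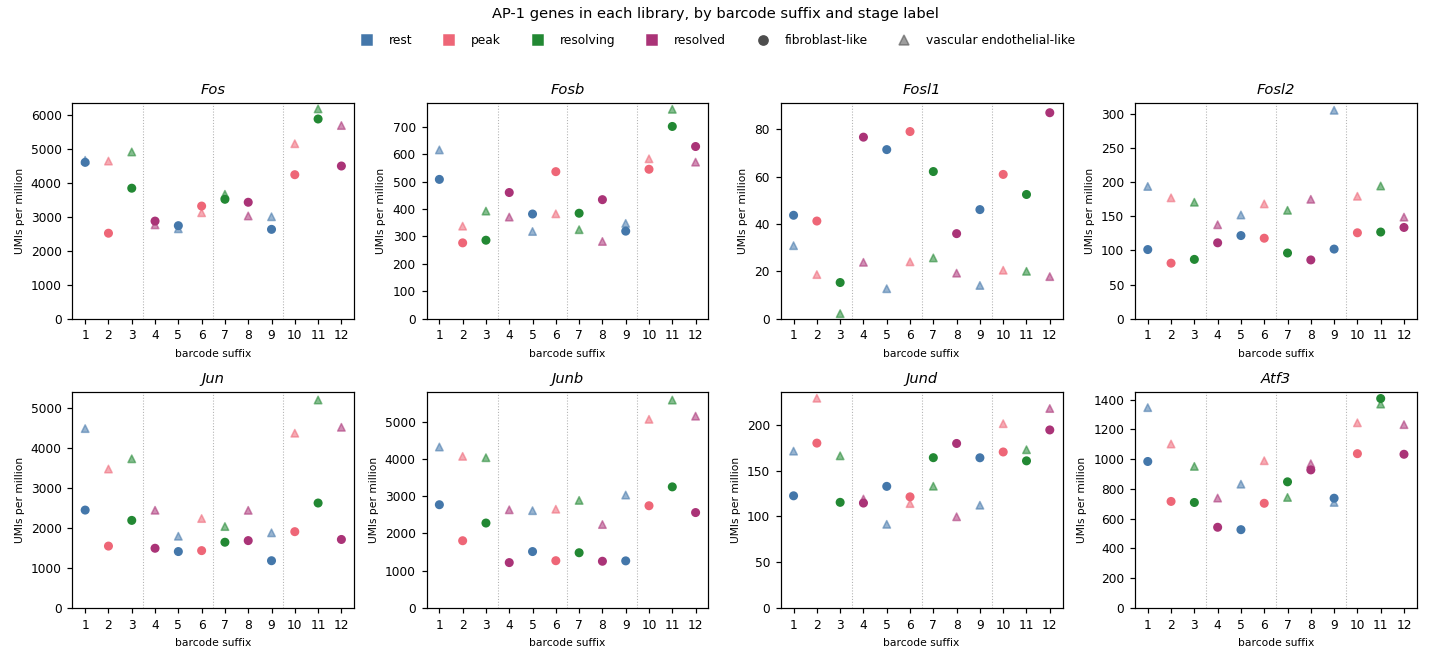
Levels of the 8 AP-1 genes in CPM in each library, ordered by barcode suffix, with circles for fibroblast-like and triangles for vascular endothelial-like cells, coloured by stage label and with dotted lines between the suffix groups. Colours do not separate the libraries, whereas vascular endothelial-like *Fos*, *Jun* and *Junb* are low in suffixes 4 to 9 and high in 1 to 3 and 10 to 12.

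Of the other lists in fibroblast-like cells, the AP-1 target genes were 11 higher and 1 lower of 19 tested in suffixes 4 to 6 against 1 to 3, with *Timp1* at 4.02, *Spp1* at 3.44, *Mmp3*, a matrix metalloproteinase gene, at 3.13 and *Ccnd1* at -1.38 on the log2 scale. Their summed level was 3307 to 5509 CPM in suffixes 1 to 3 and 10531 to 12095 in 4 to 6, while that of the 8 members was 7171 to 11593 and 6897 to 7585. The bZIP partners were 0 higher and 5 lower of 17 (*Maff* and *Atf5* among those lower), and the upstream genes 3 higher and 1 lower of 21 (*Elk3*, *Srf* and *Mapk8* higher). Other immediate early genes were 8 higher and 6 lower of 29 and heat shock genes 1 higher and 3 lower of 13, and their summed levels ran 7390.4 to 10788 and 17691 to 21676 CPM in suffixes 1 to 3 against 7739 to 8419 and 15290.1 to 15871 in 4 to 6. In suffixes 10 to 12 against 1 to 3, the other immediate early genes were 6 higher and 0 lower of 29 and the heat shock genes 0 higher and 4 lower of 13. Their part in the differences of the members was not tested.

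In vascular endothelial-like cells, 6 of 8 members differed in some suffix group, all but *Fosl1* and *Fosl2*, beside 25.4% of 6966 genes. *Fos* was 4673, 4649 and 4919 CPM in suffixes 1 to 3, 2768, 2652 and 3125 in 4 to 6, 3669.7, 3031 and 3007 in 7 to 9 and 5161, 6189 and 5698 in 10 to 12. Every library of suffixes 4 to 9 lay below every library of 1 to 3 and 10 to 12. *Jun* was 4489, 3477 and 3733 CPM in suffixes 1 to 3, 2445, 1795 and 2238 in 4 to 6, 2038, 2443 and 1881 in 7 to 9 and 4373, 5204 and 4521 in 10 to 12. *Junb* was 4321, 4069.9 and 4034 CPM in suffixes 1 to 3, 2636, 2612 and 2651 in 4 to 6, 2888, 2240.1 and 3032 in 7 to 9 and 5064, 5580.4 and 5148 in 10 to 12. Neither gene overlapped between the low 6 and the high 6 libraries. *Jund* was 171, 229 and 166 CPM in suffixes 1 to 3, 119, 91.4 and 114 in 4 to 6, 133, 99.7 and 112 in 7 to 9 and 201, 173 and 218 in 10 to 12, with the same separation. This split of the libraries was read from the values, and the share of all genes that separate likewise was not counted.

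Suffixes 4 to 6 were lower than 1 to 3 for *Fos* (log2 fold change -0.70 ± 0.11 SE, adjusted p = 0.000133) and *Jun* (log2 fold change -0.82 ± 0.12 SE, adjusted p = 0.000108). They were also lower for *Junb* (log2 fold change -0.62 ± 0.11 SE, adjusted p = 0.000413) and *Jund* (log2 fold change -0.79 ± 0.19 SE, adjusted p = 0.00497). These were 4 of 8 members lower and 0 higher, with 9.29% of genes lower and 10.8% higher. The other immediate early genes were 0 higher and 20 lower of 29 tested and the heat shock genes 0 higher and 8 lower of 13. Their sums ran 17480.3 to 20172 and 32839 to 41617 CPM in suffixes 1 to 3 against 10827 to 12089.9 and 20525 to 26024 in 4 to 6, and their part in the members' differences was not tested. After each cell was thinned to 2000 UMIs, which dropped 202 of the 1768 cells, 0 members were called in edgeR, with log2 fold changes of -0.28 (*Fos*), -0.43 (*Jun*), -0.20 (*Junb*) and -0.37 (*Jund*).

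The vascular endothelial-like cells formed 2 clusters, and the members' differences between suffix groups differed between them. Cluster 16 was led by *Selp*, *Fam167b*, *Plvap* and *Vwf*, genes known from venular endothelium, and cluster 6 by *Timp4*, *Aqp7* and *Car4*, genes known from capillary endothelium. *Fos* in cluster 16 was 6449, 5567 and 4612 CPM in suffixes 1 to 3, 2315, 2087 and 2098 in 4 to 6, 3435, 2719 and 2603 in 7 to 9 and 5680.3, 4972 and 4665 in 10 to 12. *Fos* in cluster 6 was 3652, 4128 and 5129 CPM in suffixes 1 to 3, 4462, 5106 and 7063 in 4 to 6, 4344, 4332 and 4061 in 7 to 9 and 4976, 6629 and 5926 in 10 to 12. In cluster 16 the 3 libraries of suffixes 4 to 6 lay below those of 1 to 3, and in cluster 6 they did not.

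Tested by cluster, which was chosen after seeing the data, cluster 16 had 7 of 7 tested members lower in suffixes 4 to 6 than in 1 to 3, beside 11.7% of 4476 genes: *Jun* (-1.47, adjusted p = 8.66e-05), *Fos* (-1.38, adjusted p = 3.68e-06), *Jund* (-1.31, adjusted p = 0.000383), *Junb* (-1.23, adjusted p = 1.35e-05), *Fosb* (-1.17, adjusted p = 0.00698), *Fosl2* (-0.95, adjusted p = 0.00731) and *Atf3* (-0.79, adjusted p = 0.00263). *Fosl1* did not pass the filter on low counts there. In cluster 6, *Fosb* (1.02, adjusted p = 0.0379) and *Junb* (0.59, adjusted p = 0.0188) were called higher, beside 0.509% of 3734 genes, and *Fos* (0.43, adjusted p = 0.272), *Jun* (0.50, adjusted p = 0.133) and *Jund* (0.18, adjusted p = 0.857) were not called.

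The difference itself was tested as an interaction of cluster and suffix group over 24 sums and 5085 genes, a test that was also chosen after seeing the data. It passed for 6 of the 8 members, beside 6% of genes: *Junb* (adjusted p = 3.85e-06), *Jun* (0.000132), *Fos* (0.00022), *Fosb* (0.000311), *Atf3* (0.00752) and *Jund* (0.00863). *Fosl2* (0.0594) and *Fosl1* (0.339) did not pass. In the same interaction 17 of 27 other immediate early genes and 4 of 13 heat shock genes passed. The cells were unevenly spread: cluster 6 held 275, 100, 100 and 657 cells in suffixes 1 to 3, 4 to 6, 7 to 9 and 10 to 12, and cluster 16 held 112, 199, 197 and 128. Median UMIs per cell in suffixes 1 to 3 and 4 to 6 were 2844 and 2828.5 in cluster 6, and 4794 and 5094 in cluster 16.

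**Figure D4:**
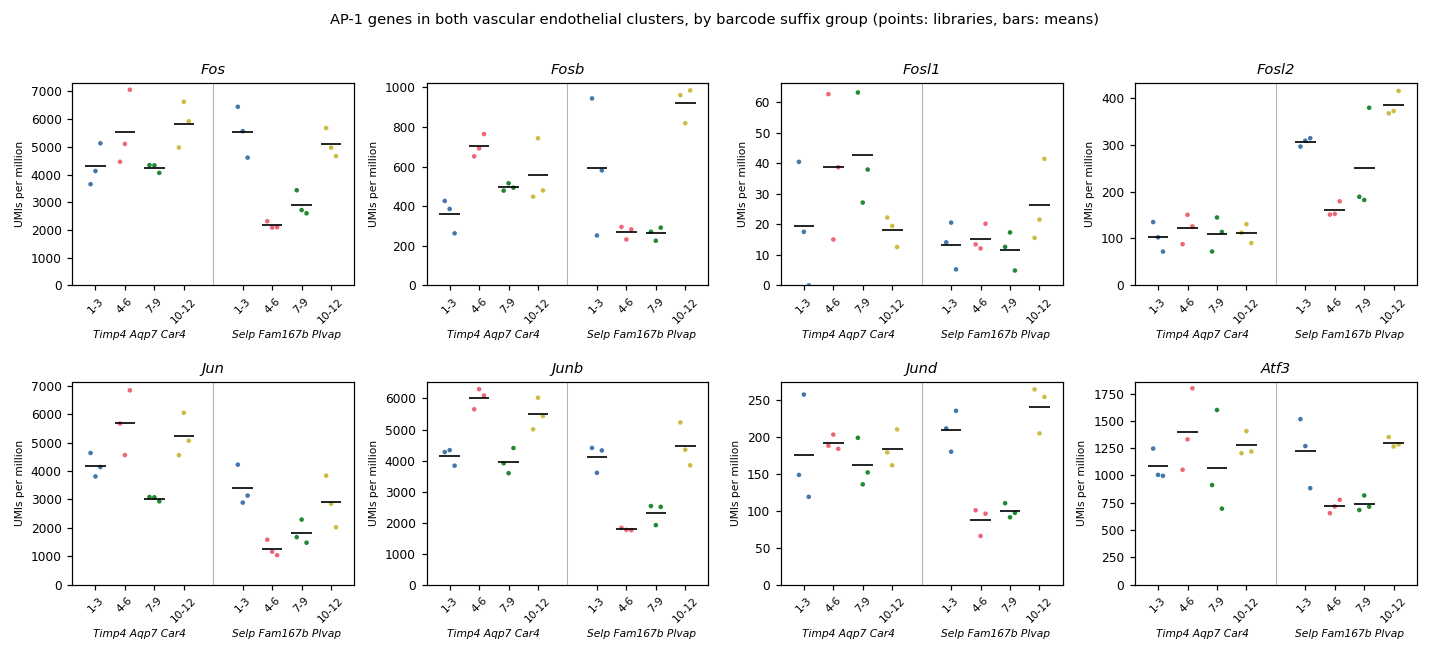
Levels of the 8 AP-1 genes in CPM in both vascular endothelial-like clusters (left and right of the grey line, named by leading genes), by barcode suffix group, with 1 point per library and a bar at the mean. In the *Selp* cluster *Fos*, *Jun* and *Junb* are lower in suffixes 4 to 6 than in 1 to 3, and in the *Timp4* cluster they are not.

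Between fibroblast-like and vascular endothelial-like cells, the suffix group differences also differed for 5 of the 8 members, in a test of the interaction over 11471 genes that 11.5% of genes passed: *Jund* (adjusted p = 0.00093), *Jun* (0.00175), *Fosb* (0.00564), *Fosl2* (0.00718) and *Atf3* (0.0172). *Fos* (0.0699), *Fosl1* (0.191) and *Junb* (0.949) did not pass. For *Jun*, suffixes 4 to 6 against 1 to 3 gave -0.44 in fibroblast-like cells and -0.82 in vascular endothelial-like cells, and for *Jund* -0.12 and -0.79, on the log2 scale.

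Across single fibroblast-like cells of 1 library, thinned to 2000 UMIs, the fast-responding members moved together. The median Pearson r over 12 libraries of 537 to 1444 cells, with the lowest and highest library in parentheses, was 0.65 (0.56 to 0.77) for *Fos* and *Jun*, 0.53 (0.46 to 0.60) for *Jun* and *Junb*, 0.52 (0.44 to 0.54) for *Fos* and *Junb* and 0.42 (0.29 to 0.52) for *Fos* and *Atf3*. *Fosb* was less tied to *Fos*, at 0.22 (0.072 to 0.34). *Fosl1* ran against *Fos*, at -0.16 (-0.28 to -0.11), with the same sign in every library, and *Jund* was near 0 against every other member, the median lying between -0.011 and 0.12. With genes outside the family, *Fos* stood at 0.51 (0.35 to 0.60) with *Egr1*, 0.48 (0.38 to 0.62) with *Dusp1* and 0.34 (0.25 to 0.46) with *Hspa1a*, the last being a heat shock gene. The points share a library, its handling and a fixed depth, and cells are not replicates. They also pool the fibroblast clusters, whose means differ. *Fos* and *Fosl1* averaged 7993 and 5.85 CPM in cluster 5 and 2845 and 115 in cluster 2. The part of the cluster mix in these correlations was not tested.

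**Figure D5:**
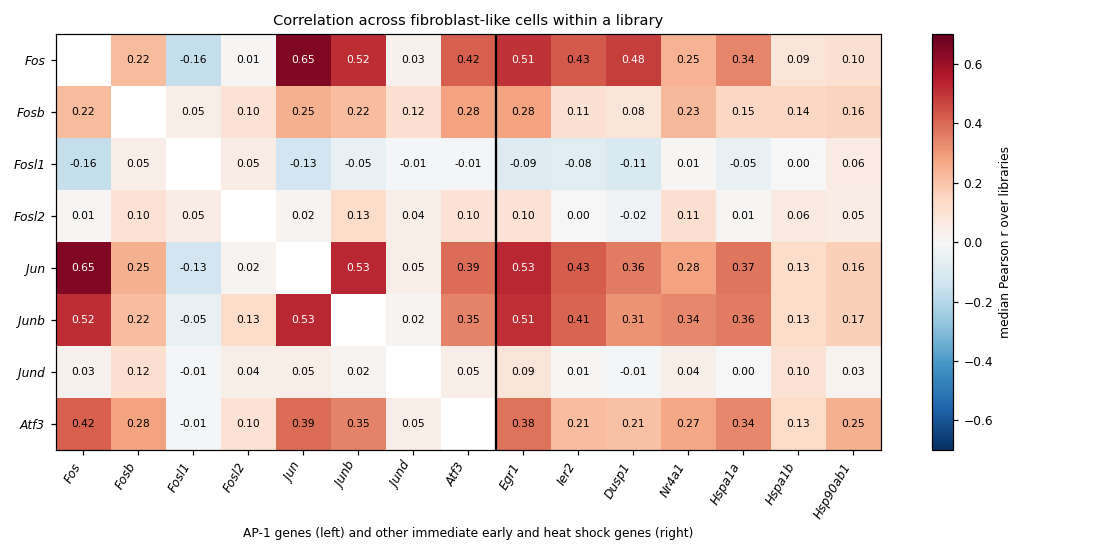
Median Pearson r over 12 libraries across fibroblast-like cells, thinned to 2000 UMIs, between the 8 AP-1 genes (rows and left block of columns) and with 7 other immediate early and heat shock genes (right block). *Fos*, *Jun*, *Junb* and *Atf3* form a positive block with *Egr1*, *Ier2* and *Dusp1*, whereas *Fosl1* is below 0 with *Fos* and *Jun*.

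The genes whose level followed each member most closely were ranked by Pearson's r of log2 CPM, as a description with no test. Over the 9 classes and 9092 other genes, the closest were *Lamp2* (r = 0.92) and *Dnajb9* (r = 0.91) to *Fos*, with *Jun* itself the next, *Dnajb9* (r = 0.934) to *Jun*, *Ccnl1* (r = 0.967) to *Junb*, *Ube2w* (r = 0.924) to *Fosb*, *Naca* (r = 0.953) to *Fosl1*, *Art3* (r = 0.963) to *Fosl2*, *Gprc5a* (r = 0.865) to *Jund* and *Pink1* (r = 0.982) to *Atf3*. Over the 12 fibroblast-like sums and 11495 other genes, *Junb* was closest to *Socs3* (r = 0.967), *Fosb* to *Neat1* (r = 0.923) and *Nfkbiz* (r = 0.915), *Fosl2* to *Fam104a* (r = 0.96) and *Cxcl1* (r = 0.942), and *Atf3* to *Lrrfip2* (r = 0.967), with *Dusp1* (r = 0.926) at rank 3. *Fos* was closest to *Pdlim1* (r = 0.919), *Jun* to *Filip1* (r = 0.94), *Fosl1* to *Gm10260* (r = 0.952) and *Jund* to *mt-Nd3* (r = 0.906). The 12 points share the suffix groups described above, and with 9 or 12 points among so many genes a high r is reached by many of them.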

How the data were processed

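Single-cell 3′ RNA counts came from 12 libraries of 10x Genomics version 2 chemistry. The authors deposited, per library, a filtered matrix of UMI counts per gene and cell made with Cell Ranger on mm10, and no other normalization is described for these counts. Cells with over 500 and under 5000 genes, over 500 UMIs and under 20000 to 40000 UMIs, depending on the library as the study set them, were kept (20060 of 21042), with no limit on mitochondrial share except in 1 alternative. The study reports a somewhat larger number of cells past its limits, and the reason for the difference is not known. They were clustered with scanpy 1.11.5 (2000 variable genes, 30 principal components, 20 neighbours, Leiden resolution 1), leaving the members, the other immediate early genes and the heat shock genes out of the clustering genes. Classes were named from marker lists. Scrublet's own threshold marked 56 cells, too few to rely on, and no doublet was removed in the values reported. One alternative removes the 6% with the highest scores.

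Counts were summed per library and class with at least 10 cells, filtered by expression, scaled by TMM and tested with edgeR 4.0.16 (quasi-likelihood, R 4.3.3, library as a block where classes or clusters are compared), with Benjamini-Hochberg adjustment over all genes tested. DESeq2 1.42.0 was an alternative. A gene was called where its adjusted p was under 0.05 and its log2 fold change, in either direction, over 0.5. Tests across all suffix groups used the adjusted p alone. The scripts were tested on simulated data with known changes. The 8 members, the gene lists and the tests were chosen with earlier results of these data known. Named genes were the 8 members, up to 3 called genes of each list with the largest changes each way, and up to 3 closest genes by correlation, some of which are not reported here. Libraries held 1227 to 2747 kept cells, whose UMIs summed to 7468914 to 16566202, and low counts limit *Fosl1* most. Other settings are given in the closing section.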

Additional observations from a re-analysis of the deposited data

Results flagged for a closer look

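Over 48 sets of 4 to 10 libraries of 1 member in 1 class or fibroblast cluster, 7 held a library that stood apart from the rest, where chance alone gives about 1 in 20 sets. In chondrocyte-like cells these were *Atf3* in resolving replicate 1, the highest (1279 CPM from 1355 UMIs in 69 cells, nearest library 759.8 CPM, gap 0.542 of the range of 8 libraries) and *Fosb* in resolved replicate 2, the lowest (275 CPM from 36 UMIs in 17 cells, nearest library 418 CPM, gap 0.625 of the range of 8 libraries). In lymphatic endothelial-like cells they were *Fosl1* in resolving replicate 3, the highest (29.9 CPM from 2 UMIs in 17 cells, nearest library 14.3 CPM, gap 0.522 of the range of 10 libraries) and *Jund* in resolving replicate 2, the highest (363 CPM from 18 UMIs in 11 cells, nearest library 179 CPM, gap 0.54 of the range of 10 libraries). *Junb* in proliferating-like cells stood apart in rest replicate 3, the highest (996 CPM from 234 UMIs in 24 cells, nearest library 731 CPM, gap 0.646 of the range of 6 libraries). Among fibroblast clusters, *Atf3* in cluster 0 stood apart in resolved replicate 3, the highest (1803 CPM from 203 UMIs in 14 cells, nearest library 1172 CPM, gap 0.528 of the range of 9 libraries) and *Jun* in cluster 4 in resolving replicate 2, the highest (2114 CPM from 1258 UMIs in 55 cells, nearest library 1443 CPM, gap 0.649 of the range of 6 libraries).

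The differences between suffix groups themselves differed between fibroblast-like and vascular endothelial-like cells, in edgeR's test of the interaction, for *Jund* (adjusted p = 0.00093), *Jun* (0.00175), *Fosb* (0.00564), *Fosl2* (0.00718) and *Atf3* (0.0172). In an interaction test chosen after seeing the data, they differed between both vascular endothelial-like clusters for *Junb* (adjusted p = 3.85e-06), *Jun* (0.000132), *Fos* (0.00022), *Fosb* (0.000311), *Atf3* (0.00752) and *Jund* (0.00863). What the suffix groups stand for is not given in the sources used here.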

How the results depend on the processing

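The counts of members called kept within 1.5 times their value in 134 of 168 other settings (11 higher, 23 lower), and in 121 of 132 that leave out 1 library. These figures compare numbers only and not which members were called. Suffixes 4 to 6 against 1 to 3 called *Junb* and *Fosl1* over all fibroblast-like cells, but *Fosb* and *Fosl2* over the clusters every library held. The stage labels, with 0 members in every setting, count as kept throughout. For the cell classes the calls of single members held their direction except *Fosl1* in tenocyte-like cells, which was 0.33 at Leiden resolution 0.5. Suffixes 7 to 9 against 4 to 6 in fibroblast-like cells (0 members) gave 1 with no scaling beyond totals, 1 with no filter on low counts, 1 with cells thinned to 2000 UMIs, 3 at Leiden resolution 0.5, 2 with tenocyte-like and proliferating clusters added and, in settings chosen after seeing the data, 4 in cluster 8 alone, 3 in cluster 14 alone and 5 in the clusters every library held. Suffixes 10 to 12 against 1 to 3 (2 members) gave 1 with no scaling, 5 with no filter, 1 at Leiden resolution 0.5, 1 with the stage label as a block, and 0, 5, 1, 0 and 0 in clusters 2, 5, 7, 10 and 14 alone. Members that differed in any suffix group (8) were 5 at Leiden resolution 0.5 and 0, 5, 3, 3 and 3 in those clusters. Suffixes 4 to 6 against 1 to 3 (2 members) gave 0, 1 and 0 in clusters 2, 7 and 10 alone. There *Junb* turned to 0.42, 0.60, 0.27 and 0.98 in clusters 5, 8, 10 and 14 and 0.33 in the clusters every library held. In vascular endothelial-like cells, suffixes 4 to 6 against 1 to 3 (4 members) gave 0 after thinning, 2 in cluster 6 alone and 7 in cluster 16 alone; in cluster 6 *Fos*, *Jun*, *Junb* and *Jund* turned to 0.43, 0.50, 0.59 and 0.18. Members that differed in any suffix group there (6) were 2 in cluster 6 alone, and the interaction with fibroblast-like cells (5) gave 3 after thinning and 3 with cluster 6 alone. The lining comparison (4) gave 1 with no filter and 1 with no upper limits on genes and UMIs, and had no value at Leiden resolution 0.5. The causes of these changes were not tested. The share of all genes called moved with the setting as well. For suffixes 4 to 6 against 1 to 3, 17.3% of genes were higher over all fibroblast-like cells and 1.26% in cluster 14 alone. The counts in this section stand without that share and are not read as results about the members. Leaving out 1 library gave 0 to 0 members for each stage label, 2 to 4 for suffixes 4 to 6 against 1 to 3 (4 without rest replicate 1), 0 to 1 for 7 to 9 against 4 to 6 (1 without rest replicate 3, peak replicate 2, resolving replicate 1 or resolving replicate 2), 0 to 3 for 10 to 12 against 1 to 3 (0 without resolving replicate 1 or resolved replicate 3, and 1 without peak replicate 1, resolving replicate 2, resolving replicate 3 or resolved replicate 1), 6 to 8 for any suffix group, 4 to 5 and 6 to 6 for these tests in vascular endothelial-like cells, 4 to 6 for the interaction of classes and 5 to 7 for that of the vascular clusters. The replicate block changed no call for the stage labels (0 members), and neither did the suffix group as a block (0); replicates of 1 number share only the number, since their deviations correlated at r from -0.60 to 0.72. Low *Fosl1* counts limit its values in lymphatic endothelial-like (5 UMIs in all), osteoblast-like (86), perivascular-like (125) and vascular endothelial-like cells (143).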

Other observations

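Osteoblast-like and perivascular-like cells held the AP-1 genes by suffix group as follows, without a test. In osteoblast-like cells *Fos* was 5877, 3928 and 5321 CPM in suffixes 1 to 3, 7835, 5261 and 6007 in 4 to 6, 4903, 4489 and 5313 in 7 to 9 and 6584, 8508 and 7139.9 in 10 to 12. *Junb* there was 2389, 1862 and 2340.2 CPM in suffixes 1 to 3, 2831, 2432 and 2901 in 4 to 6, 2205, 1707 and 2095 in 7 to 9 and 3344, 3734 and 2879.9 in 10 to 12. In perivascular-like cells *Fos* was 3648, 3339 and 3677 CPM in suffixes 1 to 3, 2677, 2604 and 1654 in 4 to 6, 3591, 2338 and 2309.8 in 7 to 9 and 3389, 2786 and 5205 in 10 to 12. *Fosl2*, the member most raised in that class, was 295, 394 and 500.1 CPM in suffixes 1 to 3, 214, 209.8 and 162 in 4 to 6, 265, 108 and 173 in 7 to 9 and 496, 389 and 376 in 10 to 12.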
